A study of Rattus norvegicus with 16 samples.

Results

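The comparison described here is the change of the implant effect between days in the rat abdominal wall, measured by bulk RNA sequencing of the tissue at the implant. It is the log2 ratio of adhesive to non-adhesive implants on day 14 post-implantation minus the same log2 ratio on day 3, called the log2 difference below. A positive value means that the adhesive implant stood higher, relative to the non-adhesive implant, on day 14 than on day 3. The comparison needed all 4 groups of the study, so its members are all 16 of the 16 libraries, with 4 in each of adhesive day 3, non-adhesive day 3, adhesive day 14 and non-adhesive day 14. The labels of all 16 give female Sprague Dawley rats of 12 weeks, while the methods of the study name both sexes for its rat work. The adhesive implant was a polyurethane mock device with a layer of poly(acrylic acid) N-hydroxysuccinimide ester and poly(vinyl alcohol) that bonds to wet tissue. The non-adhesive implant was the same construct, swollen in PBS until it no longer bonded and then sutured, so sutures are part of every value here. No label or method states that the libraries are from separate rats, and p values thus measure the spread between libraries, which may be technical. The series text also names day 17 and the extraction protocol day 10; days follow the sample labels.

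An implant wound first recruits neutrophils and monocytes, which release cytokines and interferons. Type I interferons switch on a set of antiviral and antigen-presentation genes, among them the Mx GTPases, the 2′-5′-oligoadenylate synthetases and the MHC class I genes. In the later foreign body reaction, macrophages and fibroblasts build a vascularised collagen capsule around the device, next to the skeletal muscle of the wall. A difference of effects asks which genes follow a different course under the 2 implants, whatever change both implants share.

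Few single genes differed in their course beyond the spread of the libraries. With edgeR's quasi-likelihood test, 1 of 14601 genes was called, 0.00685% of those tested, with thresholds of 0.05 for the adjusted p and 1 for the size of the log2 difference. It had a positive difference, and no gene with a negative difference was called. At an unadjusted p under 0.05 there were 692 genes (4.74%), of which 216 (1.48% of all tested) were positive and 476 (3.26%) negative. DESeq2 called 25 genes (0.171%) in the same contrast, 12 positive (0.0822%) and 13 negative (0.089%), and limma-voom called 1. Among genes with a symbol, DESeq2 called Mx1 and RT1-S3 with negative differences and Slc51a with a positive one. Signs over all tested genes were balanced, with 49% positive and 51% negative and a median log2 difference of -0.009. Symbols were at hand for 1999 of the tested genes, so most calls could be given only by Ensembl identifier. Of these 1999, 1.05% were positive and 3.15% negative at an unadjusted p under 0.05.

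Library totals were 18616084 to 24858976 counts on day 3 and 13852126 to 16801635 on day 14. The library non-adhesive day 14 replicate 4 stood apart from its group. Its mean log2 CPM (the count scaled to a common library size) over the skeletal muscle list was 7.13, against 6.28 to 6.37 in the other 3 libraries of the group, and over the oxidative phosphorylation list 8.09 against 6.84 to 7.03. It was low for matrix structural proteins (4.93 against 6.71 to 6.88), for interferon-induced genes (3.31 against 4.83 to 5.08) and for lymphocyte genes (1.23 against 2.59 to 3.31). The part of tissue composition in the gene results was not tested, and in bulk tissue fewer cells of a type and less RNA per cell cannot be told apart. Without this library DESeq2 called 181 genes (1.24%), of which 32 were positive (0.219%) and 149 negative (1.02%), and all 25 genes called with 16 libraries were among them. With edgeR, 6.04% of genes were then positive and 7.66% negative at an unadjusted p under 0.05. Values without it are given below where they change a call or move a count or median by over 1.5 times, and for some further genes. That library was singled out after its values were seen. Values without it thus show how much 1 library matters and are not a second test. Non-adhesive day 3 replicate 2 leaned the same way and was highest of its group for the muscle list. It was at 7.16 for oxidative phosphorylation (6.27 to 6.75 in the rest of its group) and 5.45 for matrix proteins (6.15 to 6.32). For interferon-induced genes it was at 4.02 (4.31 to 5.37). Without this day 3 library DESeq2 called 14 genes, 6 positive and 8 negative. List medians and list calls without it are not given here.

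The gene called by edgeR was ENSRNOG00000033734, on chromosome 13 from 52662996 to 52680990 on the plus strand in the coordinates of the count files, whose build could not be settled because the processing notes name GRCm38 and the paper mRatBN7.2. CPM, here and below, are scaled by TMM, which sets library sizes so that most genes match between libraries, are given in the order of the replicates, and are compared only within a gene, never between genes. On day 3 its level was 97.4, 146, 131 and 138 CPM with adhesive and 65.6, 184, 65.0 and 124 CPM with non-adhesive implants. On day 14 it was 115, 135, 159 and 114 CPM with adhesive and 13.3, 7.58, 10.2 and 12.4 CPM with non-adhesive implants. All 4 non-adhesive day 14 libraries lay below the other 12, and the other 3 groups overlapped. Group means ± SD (n = 4 in each group, here and below) were 128 ± 21.4 CPM, 109.8 ± 56.9 CPM, 131 ± 21.0 CPM and 10.8 ± 2.54 CPM in the order adhesive and non-adhesive day 3, adhesive and non-adhesive day 14, which is the order used throughout. The log2 difference was 3.37 ± 0.43 (SE), with an edgeR adjusted p of 0.016 and a DESeq2 adjusted p of 4.5e-10. Leaving out each library in turn kept the log2 difference between 3.00 and 3.56, while the edgeR adjusted p ran from 0.0073 to 0.078 and 9 of the 16 fits no longer passed; DESeq2 passed in all 16.

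A second gene without a symbol, ENSRNOG00000018598 on chromosome 1, had much the same pattern. Its level was 1202, 1714, 1730.5 and 909 CPM in adhesive and 446, 669, 918 and 612 CPM in non-adhesive day 3 libraries. In adhesive day 14 libraries it was 472, 1009, 894 and 399 CPM, and in non-adhesive day 14 libraries 48.5, 20.5, 20.01 and 36.1 CPM. The non-adhesive day 14 libraries were again the lowest 4, without overlap with any other group. The log2 difference was 3.40 ± 0.53, the edgeR adjusted p 0.091 and the DESeq2 adjusted p 5.9e-07, and DESeq2 passed in all 16 fits with 1 library left out.

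**Figure D1:**
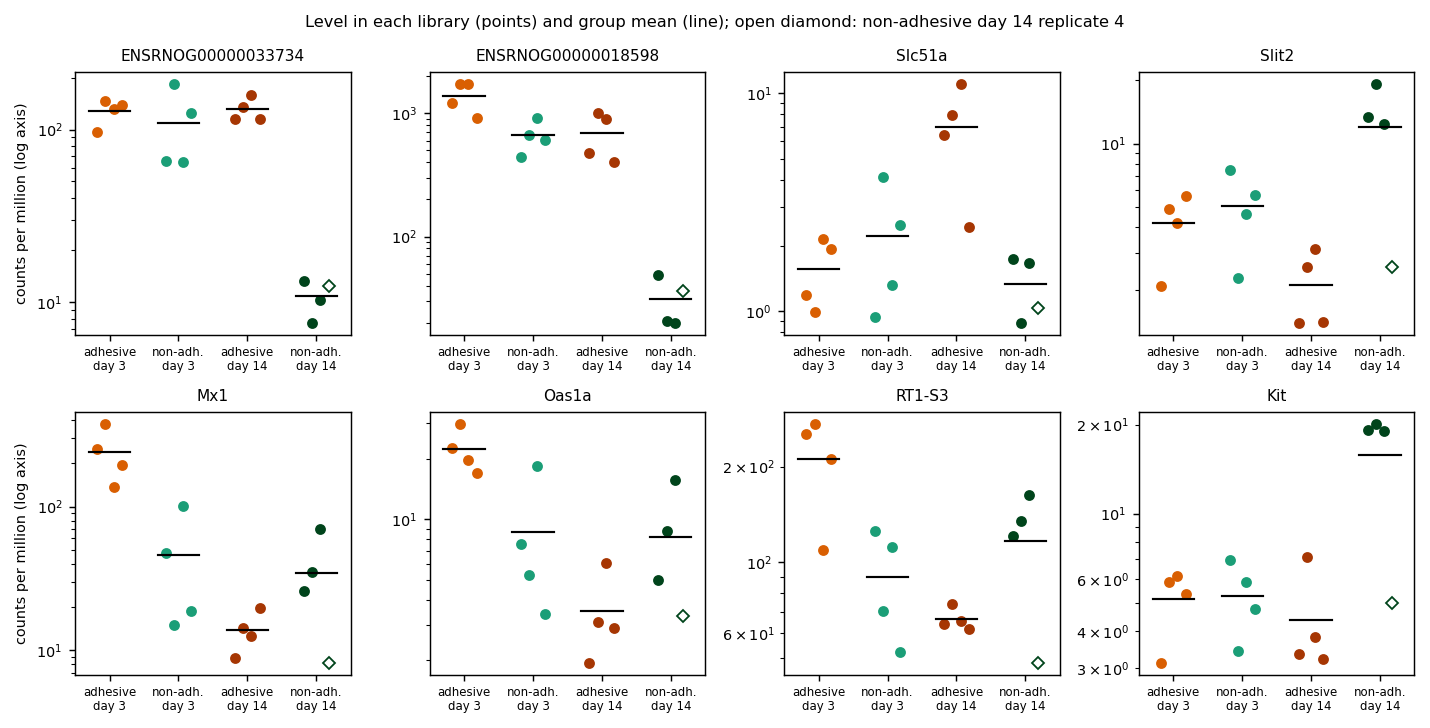
Level of 8 genes in each of the 16 libraries (points, CPM on a log axis) by group, with the group mean as a line and non-adhesive day 14 replicate 4 as an open diamond. ENSRNOG00000033734 and ENSRNOG00000018598 are lowest in all 4 non-adhesive day 14 libraries, Mx1 is highest in the adhesive day 3 libraries, and for Slit2 and Kit the open diamond lies far below the other 3 libraries of its group.

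Interferon-induced genes led the negative differences among genes with a symbol when ranked by p. Mx1, an interferon-induced GTPase that blocks virus replication, was measured at 249.8, 377, 136 and 195 CPM in adhesive day 3 libraries and at 47.8, 15.0, 101 and 18.7 CPM in non-adhesive day 3 libraries. On day 14 it was 8.87, 14.4, 12.6 and 19.8 CPM with adhesive and 25.8, 35.0, 70.0 and 8.21 CPM with non-adhesive implants. The adhesive day 3 libraries were the highest 4 of the 16, and on day 14 the groups overlapped only through non-adhesive replicate 4, the lowest of all. The log2 difference of Mx1 was -3.71 ± 0.89, with an edgeR adjusted p of 0.66 and a DESeq2 adjusted p of 0.019. It lay between -4.43 and -3.11 with any 1 library left out, and DESeq2 passed in 9 of those 16 fits. Mx2, a second Mx GTPase, had means of 279.5 ± 146, 66.7 ± 77.4, 19.7 ± 10.0 and 41.4 ± 24.6 CPM, and its log2 difference of -3.14 ± 0.95 did not pass either test with all libraries (DESeq2 adjusted p 0.153, and 0.0253 without non-adhesive day 14 replicate 4).

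Oas1a, an oligoadenylate synthetase that activates RNase L on double-stranded RNA, was at 22.6, 29.8, 19.6 and 17.0 CPM in adhesive and 7.51, 5.30, 18.4 and 3.39 CPM in non-adhesive day 3 libraries. It was at 1.95, 3.11, 6.10 and 2.90 CPM in adhesive and 4.98, 8.74, 15.7 and 3.32 CPM in non-adhesive day 14 libraries. The day 3 groups overlapped through non-adhesive replicate 3, and the day 14 groups overlapped too. Its log2 difference was -2.58 ± 0.75, with a DESeq2 adjusted p of 0.15 with all libraries and 0.0178 without non-adhesive day 14 replicate 4. RT1-S3, an MHC class I gene, was at 253, 273, 109 and 211 CPM in adhesive and 126, 70.5, 112 and 52.4 CPM in non-adhesive day 3 libraries. On day 14 it was at 64.1, 74.1, 65.2 and 61.5 CPM with adhesive and 121, 135, 163 and 48.4 CPM with non-adhesive implants. Here too 1 library of the non-adhesive group, replicate 4, lay below all adhesive day 14 libraries while the other 3 lay above them. The log2 difference of RT1-S3 was -2.05 ± 0.51, with a DESeq2 adjusted p of 0.0495 with all libraries and 0.000333 without non-adhesive day 14 replicate 4. Its edgeR adjusted p with all libraries was 0.667. DESeq2 passed in 4 of the 16 fits that left out 1 library, and for Oas1a in 2. RT1-N3, a neighbouring class I gene, had means of 26.2 ± 6.93, 17.8 ± 7.66, 10.0 ± 2.32 and 18.4 ± 7.74 CPM and a log2 difference of -1.44 ± 0.52 that did not pass with all libraries (DESeq2 adjusted p 0.469) and passed DESeq2 without non-adhesive day 14 replicate 4 (-1.69, adjusted p 0.0217). RT1, Mx and Oas genes have close copies, and how reads that map to several copies were counted is not given in the sources used here, so their levels may be split between copies.

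For Mx1, Oas1a and RT1-S3, which lead the negative differences of the interferon-induced and antigen-presentation lists, the 250 bases before the gene start are shown 5′ to 3′ as RefSeq gives them on build GRCr8. Capitals mark a match, on either strand, to GAAANNGAAA, the core of the interferon-stimulated response element. Overlapping matches were joined.
Mx1, chr11:50294607-50294856, minus strand: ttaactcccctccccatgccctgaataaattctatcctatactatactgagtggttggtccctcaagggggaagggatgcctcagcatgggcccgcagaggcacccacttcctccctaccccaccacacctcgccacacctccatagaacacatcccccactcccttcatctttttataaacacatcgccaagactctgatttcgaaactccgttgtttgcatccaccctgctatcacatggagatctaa
Oas1a, chr12:41330216-41330465, plus strand: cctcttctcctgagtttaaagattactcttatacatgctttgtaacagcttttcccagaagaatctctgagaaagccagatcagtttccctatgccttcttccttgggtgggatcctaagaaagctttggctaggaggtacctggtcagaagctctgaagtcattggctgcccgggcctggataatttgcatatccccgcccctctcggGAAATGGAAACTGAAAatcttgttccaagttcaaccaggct
RT1-S3, chr20:2675278-2675527, plus strand: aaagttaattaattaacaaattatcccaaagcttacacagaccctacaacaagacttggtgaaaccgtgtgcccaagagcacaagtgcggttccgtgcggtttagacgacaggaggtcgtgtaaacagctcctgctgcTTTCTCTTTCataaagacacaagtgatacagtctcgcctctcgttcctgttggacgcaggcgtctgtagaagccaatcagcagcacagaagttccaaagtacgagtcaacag
The letters were found at 2 overlapping places in the Oas1a window and at 1 place, on the opposite strand, in the RT1-S3 window, and not in the Mx1 window. Of all 33469 promoter windows of this length, where some genes have several, 3.41% hold at least 1 match. The next counts are by gene, with a match in any window of the gene. Among the 57 named symbol genes with a window 7 do, Cox18, Mylk and Scube3 among them. Among 14 tested interferon-induced genes with a window 4 do. Shares by window and by gene are unlike measures, and whether they differ was not tested. A match describes the letters only, and no binding was measured.

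The remaining members of the interferon-induced list had the same sign for the most part. Of 37 genes listed, 19 had a symbol and were tested, and 17 had a negative log2 difference. Of the negative ones 7 were at an unadjusted p under 0.05, where 3.26% of all tested genes were negative at that level. DESeq2 called 1, Mx1, beside 0.089% of all tested genes called negative. The median of the list was -0.90, against -0.009 over all genes, and -1.19 without non-adhesive day 14 replicate 4. Without that library DESeq2 called 5 members, all negative, where 1.02% of all tested genes were called negative. At an unadjusted p under 0.05 there were then 14 negative members (7.66% of all genes were negative at that level). With all libraries the other 4 members at that level, beside Mx1, Mx2 and Oas1a, were Gbp6, a guanylate-binding protein, at -2.94, Lgals3bp, a secreted galectin-3 binding protein, at -1.85, Trim25, a ubiquitin ligase of RNA sensing, at -1.25, and Trafd1, a feedback regulator of innate signalling, at -0.69. The 2 positive members were Ubd, a ubiquitin-like protein, at 1.03 and Ifitm1, a membrane antiviral protein, at 0.92 (unadjusted p 0.386 and 0.182). These 6 genes were named after their values were seen. Mean log2 CPM over the list was 5.22 to 6.08 in adhesive and 4.02 to 5.37 in non-adhesive day 3 libraries, and 4.08 to 4.67 in adhesive and 3.31 to 5.08 in non-adhesive day 14 libraries, so the groups overlapped on both days.

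Positive differences among genes with a symbol were led by Slc51a, which encodes the α subunit of the bile acid and steroid transporter OST. Slc51a was at 1.19, 0.990, 2.14 and 1.93 CPM in adhesive and 0.943, 4.11, 1.31 and 2.49 CPM in non-adhesive day 3 libraries, and at 6.38, 7.96, 10.99 and 2.43 CPM in adhesive and 1.74, 0.887, 1.66 and 1.04 CPM in non-adhesive day 14 libraries. The adhesive day 14 libraries lay above all non-adhesive day 14 libraries, and 3 of the 4 lay above every other library. Its log2 difference was 2.84 ± 0.71, with a DESeq2 adjusted p of 0.04 and an edgeR adjusted p of 0.67. DESeq2 passed in 5 of the 16 fits that left out 1 library.

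The other 11 genes of the 12 with the lowest p and a positive difference did not pass either test. In 10 of the 11, all but Gap43, the non-adhesive day 14 group was the one farthest from the median of the other 3. It was the low group there, a side set by picking positive differences. Over all 216 positive genes at an unadjusted p under 0.05 that group was the farthest in 48.1%, each time on the low side. Over all tested genes it was the farthest in 30.7%, on either side. Tmem158, a membrane protein that rises with Ras signalling, had means of 42.3 ± 19.5, 52.7 ± 22.1, 19.6 ± 10.8 and 5.50 ± 2.54 CPM and a log2 difference of 2.14 ± 0.64. Cdkn1a, the cyclin-dependent kinase inhibitor p21 of the p53 response, had means of 328 ± 23.9, 380.3 ± 103.9, 139 ± 44.0 and 70.5 ± 17.0 CPM and a log2 difference of 1.19 ± 0.35. Both had higher means on day 3 under either implant, and all 4 non-adhesive day 14 libraries lay below the other 12 (for Cdkn1a by 94.2 against 94.4 CPM at the nearest). Gsk3b, a kinase that restrains Wnt signalling, was at 25.3, 23.1, 41.6 and 31.0 CPM in adhesive day 14 libraries and at 13.7, 13.9, 14.0 and 11.8 CPM in non-adhesive day 14 libraries, with day 3 means of 29.2 ± 3.61 and 22.2 ± 4.05 CPM and a log2 difference of 0.78 ± 0.25. Hsf2, a heat shock transcription factor, had a log2 difference of 0.86 ± 0.29 and means of 57.5 ± 14.3, 49.9 ± 14.0, 64.8 ± 5.76 and 30.9 ± 4.72 CPM. Brwd1, a bromodomain chromatin protein, had a small log2 difference of 0.58 ± 0.17 and a narrow non-adhesive day 14 group of 21.3, 21.3, 22.8 and 21.6 CPM, below every other library. The rest were Ets2 (0.81 ± 0.33), Slc43a2 (0.50 ± 0.19), Ift81 (0.59 ± 0.25), Snx13 (0.56 ± 0.23), Ipmk (0.68 ± 0.29) and Gap43 (1.29 ± 0.53).

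The negative differences outside the interferon genes mostly had their odd value in the non-adhesive day 14 group. Among the 12 genes with the lowest p and a negative difference, non-adhesive day 14 was farthest from the others, on the high side, in 7, adhesive day 3 in 4 (Mx1, Mx2, Oas1a and RT1-S3, on the high side) and adhesive day 14 in 1 (Bdkrb1, on the low side). Over all 476 negative genes at an unadjusted p under 0.05 these shares were 47.7%, 22.9% and 22.5%. The high or low side of each group is set by picking negative differences and is not a result. Mylk, the myosin light chain kinase of smooth muscle contraction, was at 55.4, 60.1, 50.8 and 41.9 CPM in non-adhesive day 14 libraries, above all others, with means of 21.8 ± 3.65, 25.7 ± 7.09 and 21.4 ± 5.68 CPM in the other groups and a log2 difference of -1.04 ± 0.31. Fzd6, a Wnt receptor, was likewise highest in all 4 non-adhesive day 14 libraries (14.9, 16.2, 12.9 and 15.7 CPM) with a log2 difference of -0.69 ± 0.22. Disp1, which releases hedgehog ligands from the cell, was also highest there at 11.8, 10.0, 17.3 and 6.23 CPM, with a log2 difference of -1.29 ± 0.40. None of these 3 passed either test with all 16 libraries, at DESeq2 adjusted p of 0.225, 0.276 and 0.241. Without non-adhesive day 14 replicate 4, DESeq2 called Disp1 (adjusted p 0.0106) and neither Mylk (0.0663) nor Fzd6 (0.168).

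Kit, the stem cell factor receptor carried by mast cells, was at 3.13, 5.85, 6.17 and 5.36 CPM in adhesive and 6.94, 3.44, 5.88 and 4.78 CPM in non-adhesive day 3 libraries. It was at 3.35, 7.12, 3.84 and 3.21 CPM in adhesive and 19.2, 20.1, 19.0 and 4.99 CPM in non-adhesive day 14 libraries. Replicates 1 to 3 of the non-adhesive day 14 group lay above all other libraries, and its replicate 4 lay within the range of the other groups. The log2 difference of Kit was -1.81 ± 0.56 with all libraries and -2.09 without replicate 4, and the DESeq2 adjusted p was 0.21 and 0.000846. Slit2, a secreted Robo ligand of axon and vessel guidance, was at 13.4, 19.2, 12.5 and 2.60 CPM in non-adhesive day 14 libraries, with means of 4.20 ± 1.51, 5.02 ± 2.1668 and 2.13 ± 0.868 CPM elsewhere. Its log2 difference was -2.22 ± 0.72, with a DESeq2 adjusted p of 0.26 with all libraries and 0.00248 without replicate 4. Flt4, the VEGF receptor 3 of lymphatic vessels, reached 32.4 and 13.9 CPM in 2 non-adhesive day 14 libraries but was at 6.75 and 9.56 CPM in the others, within the range of the other groups (log2 difference -1.93 ± 0.58, and -1.28 at the nearest to 0 with 1 library left out). Its DESeq2 adjusted p was 0.20 with all libraries and 0.0435 without non-adhesive day 14 replicate 4. For Kit, Slit2 and Flt4 that was the 1 fit that passed DESeq2 of the 16 with 1 library left out. Myo1d, an unconventional myosin, had a log2 difference of -0.75 ± 0.24 and means of 22.3 ± 4.39, 20.7 ± 2.89, 20.4 ± 0.968 and 31.9 ± 6.80 CPM.

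**Figure D2:**
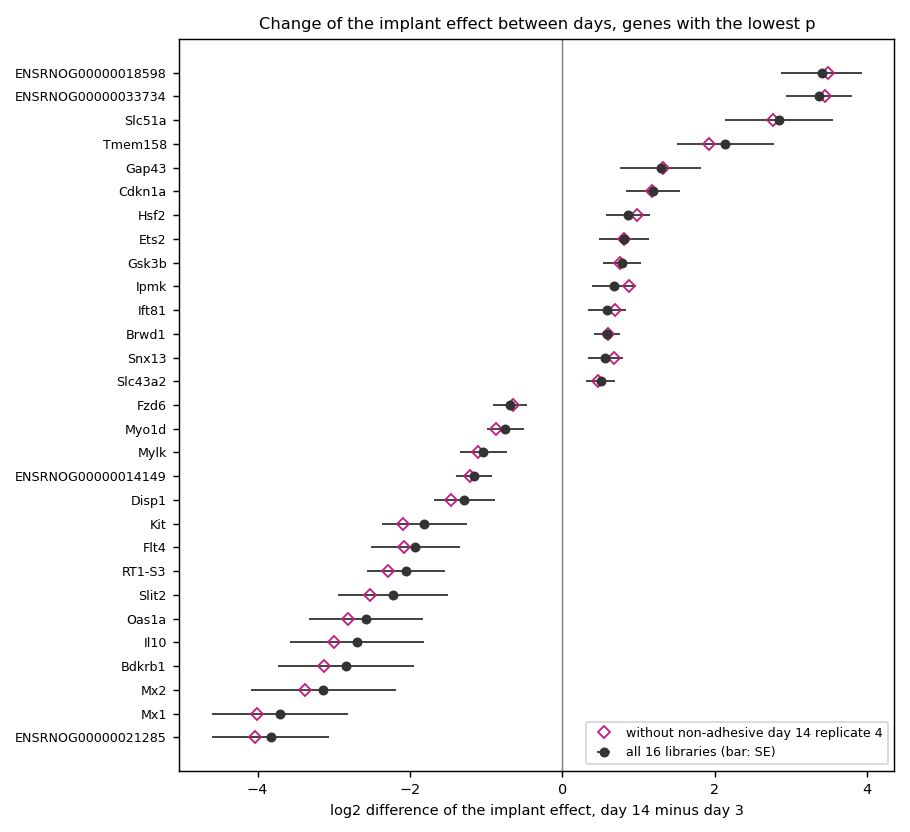
Log2 difference of the implant effect, day 14 minus day 3, for the 24 symbol genes with the lowest p, Il10 and 4 genes named by identifier, from edgeR with all 16 libraries (points, bars are SE) and without non-adhesive day 14 replicate 4 (open diamonds). Leaving out that library left every sign as it was and moved Kit from -1.81 to -2.09 and Mx1 from -3.71 to -4.01.

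Several genes of inflammatory signalling had negative differences that did not pass with all 16 libraries. Of the 25 tested genes of the early inflammation list 8 were positive, up to 2.05 for Ptgs2 (edgeR unadjusted p 0.121). Il10, an anti-inflammatory cytokine, was at 1.19, 2.54, 0.849 and 2.10 CPM in adhesive and 0.771, 0.621, 1.55 and 0.612 CPM in non-adhesive day 3 libraries, and at 0.973, 1.29, 0.262 and 0.314 CPM in adhesive and 2.43, 5.05, 1.72 and 0.519 CPM in non-adhesive day 14 libraries. The groups overlapped on both days. Its log2 difference was -2.70 ± 0.88 with a DESeq2 adjusted p of 0.28, and 0.0232 without non-adhesive day 14 replicate 4. Bdkrb1, the bradykinin B1 receptor that inflammation induces, had means of 3.36 ± 2.04, 2.46 ± 0.909, 0.202 ± 0.158 and 1.10 ± 0.620 CPM, with 1 adhesive day 14 library at 0 and a log2 difference of -2.84 ± 0.89 (DESeq2 adjusted p 0.198, and 0.0178 without non-adhesive day 14 replicate 4). Aim2, a sensor of cytosolic DNA, had a log2 difference of -1.82 ± 0.80 (DESeq2 adjusted p 0.732, and 0.0017 without that library), and Tlr7, an endosomal receptor for single-stranded RNA, of -1.84 ± 0.66. For Tlr7 the means were 46.3 ± 17.0, 23.8 ± 7.83, 9.50 ± 3.25 and 17.5 ± 10.1 CPM, and its DESeq2 adjusted p was 0.40 with all libraries and 0.00571 without non-adhesive day 14 replicate 4. For Il10, Aim2 and Tlr7 that was the 1 fit that passed DESeq2 of the 16 with 1 library left out, and Bdkrb1 passed in 2. Without non-adhesive day 14 replicate 4 DESeq2 called 1.24% of all tested genes, 1.02% negative and 0.219% positive. Among the 1999 tested genes with a symbol it called 21, 19 negative and 2 positive. The negative ones include Csrp2, a LIM protein of smooth muscle, at -1.43, and Gbp6 at -3.32. Slc6a4, the serotonin transporter (-3.78), Ptpn13, a tyrosine phosphatase (-1.51), and Prkd1, protein kinase D1 (-1.13), were also negative, and Mgst3, a microsomal glutathione transferase (1.12), was positive beside Slc51a. The last 4 genes were picked after that fit was seen. With all 16 libraries the Slc6a4 means were 0.608, 0.436, 0.318 and 2.51 CPM, so its difference rests on few reads. Those of Ptpn13 were 10.2, 14.3, 9.02 and 30.6 CPM, and of Prkd1 3.00, 3.07, 2.50 and 5.15 CPM. Mgst3 had means of 31.2, 30.7, 103 and 63.8 CPM.

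Leukocyte lists leaned to negative differences. Of the 21 lymphocyte genes tested, 19 were negative, with a median of -0.90, and 2 negative members and 1 positive member were at an unadjusted p under 0.05. The 2 negative ones were Cd247, the ζ chain of the T cell receptor, at -2.12 ± 0.96, and Cd244, a receptor of natural killer cells, at -2.09 ± 0.90, while Fcmr, the IgM receptor of B cells, was positive at 2.44 ± 1.03. Fcmr was at 1.35, 1.42, 1.03 and 6.73 CPM in adhesive and 6.54, 21.1, 2.55 and 32.2 CPM in non-adhesive day 3 libraries, with day 14 means of 9.13 ± 2.36 and 9.72 ± 5.71 CPM, and the groups overlapped on both days. Of 26 myeloid genes tested, 22 were negative with a median of -0.63, and 1 was at that level, Tlr7. Of 12 antigen-presentation genes, 11 were negative with a median of -0.67, and 2 were at that level, RT1-S3 and RT1-N3. In the early inflammation list, 17 of 25 genes were negative, the median was -0.48 and 3 were at that level (Bdkrb1, Il10 and Aim2). No member of the lymphocyte, myeloid and early inflammation lists was called by edgeR or DESeq2 with all 16 libraries. These tests called 0.00685% and 0.171% of all tested genes. Over all tested genes 51% were negative, 3.26% were negative at an unadjusted p under 0.05 and 1.48% positive at that level. Without non-adhesive day 14 replicate 4, where 7.66% of all genes were negative at that level, the negative members at that level were 10 of the lymphocyte list (and no positive one), 6 of the myeloid list, 5 of the antigen-presentation list and 3 of the early inflammation list. DESeq2 then called 0, 1, 2 and 3 of them, where 1.02% of all tested genes were called negative. The medians were then -1.12, -0.90, -0.92 and -0.39. Members of a list were measured in the same libraries and some genes stand in several lists, so these counts are not independent of one another.

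**Figure D3:**
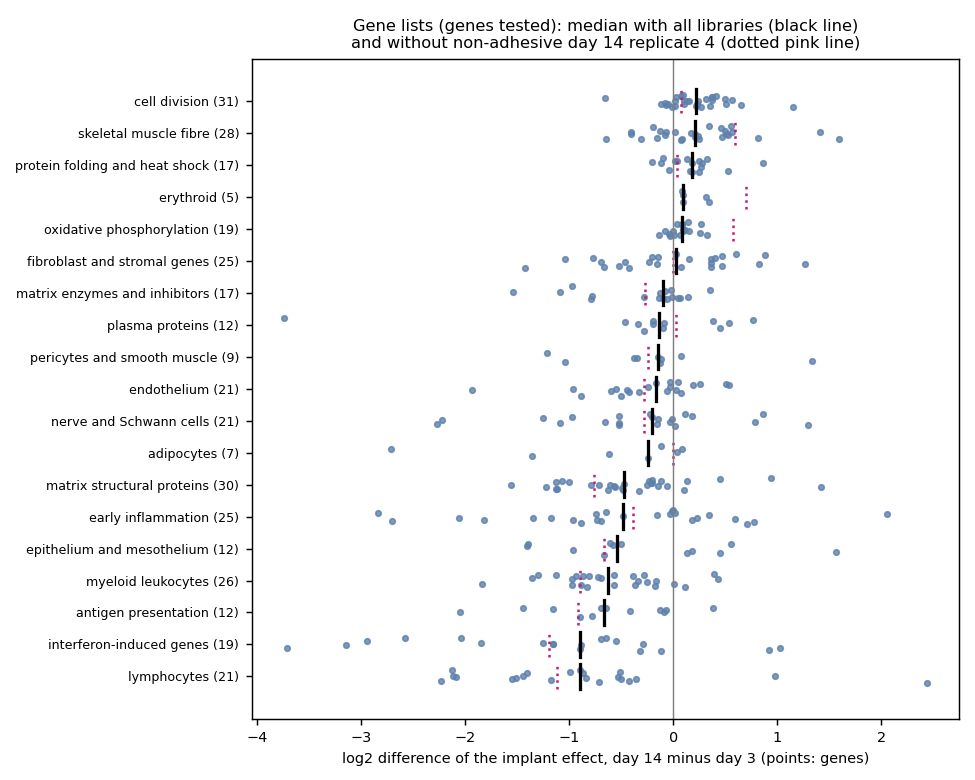
Log2 difference of the implant effect, day 14 minus day 3, for each tested gene (points) of 19 gene lists, with the median over the list with all libraries (black line) and without non-adhesive day 14 replicate 4 (dotted pink line). Medians are lowest for lymphocyte and interferon-induced genes (both -0.90) and highest for cell division (0.22) and skeletal muscle fibre (0.21), and without that library the cell division median is 0.07, the muscle median 0.59 and the oxidative phosphorylation median 0.57.

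Among structural genes of the wall, matrix proteins had a median of -0.47 over 30 tested genes, of which 25 were negative (51% of all genes were) and none was at an unadjusted p under 0.05. Without non-adhesive day 14 replicate 4 the median was -0.76, and 5 negative and 1 positive member were at that level, where 7.66% and 6.04% of all genes were. Eln, elastin, was at 59.5, 49.9, 76.4 and 134 CPM in adhesive and 278, 148, 165 and 208 CPM in non-adhesive day 3 libraries, and at 57.9, 193, 157 and 75.8 CPM in adhesive and 489, 1188, 1633 and 248 CPM in non-adhesive day 14 libraries. Non-adhesive libraries were higher on both days without overlap, and the log2 difference between the days was -1.56 ± 0.74 (unadjusted p 0.0524, and 0.0112 without non-adhesive day 14 replicate 4). The fibrillar collagens Col1a1 and Col3a1 had log2 differences near 0, at 0.10 ± 0.96 and -0.06 ± 0.90, with SEs larger than the differences. Matrix enzymes had a median of -0.10 over 17 genes and fibroblast genes of 0.03 over 25, with no member of either list at an unadjusted p under 0.05. Without that library the medians were -0.27 and 0.00, with 2 and 3 negative members at that level.

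Skeletal muscle genes had a median of 0.21 over 28 tested genes, 19 of them positive (49% of all genes were), and 0.59 with 24 positive without non-adhesive day 14 replicate 4. At an unadjusted p under 0.05 there was 1 positive member (1.48% of all tested genes were positive at that level), and 4 without that library (6.04%). Mb, the oxygen store myoglobin of oxidative fibres, was at 984, 741, 1192 and 816 CPM in adhesive and 498, 2837, 565 and 1382 CPM in non-adhesive day 3 libraries. It was at 9149, 6414, 6985 and 7639.7 CPM in adhesive and 2056, 3637, 2280.4 and 6229 CPM in non-adhesive day 14 libraries, the highest non-adhesive value being replicate 4. Mb had a log2 difference of 1.59 ± 0.69 with an unadjusted p of 0.036, which did not pass after adjustment, also not without replicate 4 (DESeq2 adjusted p 0.0718). The mean log2 CPM of the muscle list in adhesive day 14 libraries was 6.52 to 7.25, within which non-adhesive replicate 4 lay at 7.13. Oxidative phosphorylation genes had a median of 0.08 over 19 genes, and protein folding genes one of 0.18 over 17, of which Hsf2 was at an unadjusted p under 0.05. Without replicate 4 the medians were 0.57 and 0.04, with 5 and 3 positive members at that level, where 6.04% of all tested genes were positive.

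**Figure D4:**
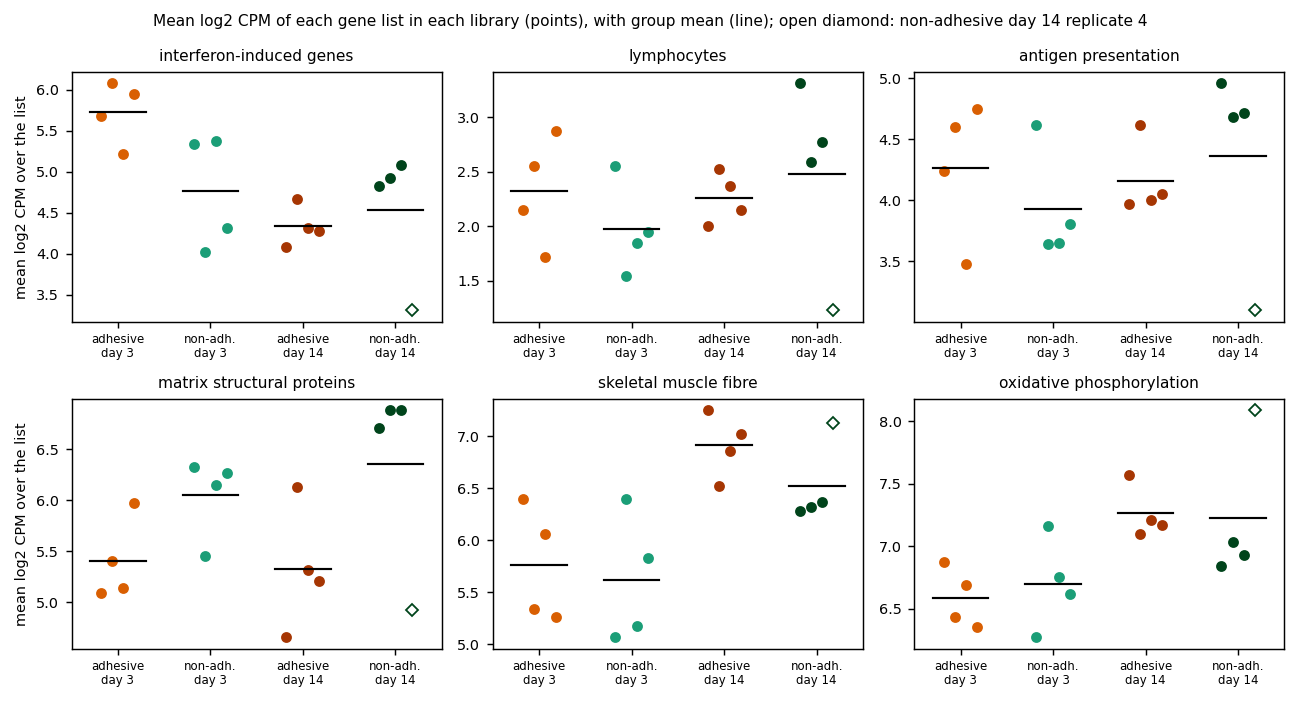
Mean log2 CPM of 6 gene lists in each library (points) with the group mean (line), non-adhesive day 14 replicate 4 as an open diamond. That library lies at 3.31 for interferon-induced genes, 1.23 for lymphocyte genes and 8.09 for oxidative phosphorylation, outside the range of the other 3 libraries of its group in all 6 panels.

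Vessel, nerve and lining lists held single genes of larger difference. In the nerve and Schwann cell list, 15 of 21 genes were negative with a median of -0.20, and 4 negative and 2 positive genes were at an unadjusted p under 0.05, beside 51% negative, 3.26% negative at that level and 1.48% positive at that level over all genes. The negative ones were Slit2 and, by falling size, S100b at -2.27 (a calcium-binding protein of Schwann cells), Egr2, a transcription factor of myelinating Schwann cells, at -1.25, and Unc5b, a netrin receptor, at -1.09 ± 0.37. The positive ones were Gap43, a growth cone protein, at 1.29 and the neuronal ubiquitin hydrolase Uchl1 at 0.79. Unc5b was highest in all 4 non-adhesive day 14 libraries (21.8, 14.7, 20.4 and 10.8 CPM). Among 12 epithelial and mesothelial genes, F11r, a tight junction protein, had a log2 difference of -0.96 ± 0.32 and Itga6, a laminin-binding integrin, of -0.50 ± 0.23. The endothelial list had a median of -0.17 over 21 genes, with Flt4 the 1 member at an unadjusted p under 0.05. Among 9 pericyte and smooth muscle genes, Csrp2 (-1.21 ± 0.48, and called by DESeq2 without non-adhesive day 14 replicate 4) and Mylk were negative and Myocd, a smooth muscle coactivator with a highest group mean of 1.25 ± 0.700 CPM in adhesive day 14, was positive at 1.33 ± 0.58. Cell division genes had a median of 0.22 over 31 genes and 25 positive members (49% of all genes were positive), but a median of 0.07 and 17 positive members without non-adhesive day 14 replicate 4. Pttg1, securin, was the 1 member at an unadjusted p under 0.05 (1.15 ± 0.52). The medians of the adipocyte, plasma protein and erythroid lists were -0.24, -0.14 and 0.09 over 7, 12 and 5 genes, with none at that level. Without that library they were 0.00, 0.03 and 0.70, with 2 positive erythroid genes at that level, where 6.04% of all tested genes were positive.

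A positive or negative difference can come from any of the 4 groups, and the calls did not share 1 pattern. Of the 12 positive genes called by DESeq2, 6 had their odd group in adhesive day 14, on the high side, and 6 in non-adhesive day 14, on the low side. Of the 13 negative ones, non-adhesive day 14 was the odd group on the high side in 6, adhesive day 3 on the high side in 5 and adhesive day 14 on the low side in 2. Non-adhesive day 3 was the odd group of none of the 25. The high or low side of each group is set by the sign by which the genes were split. Over all tested genes, on either side, the odd group was adhesive day 3 in 22.5% and non-adhesive day 3 in 18.2%. It was adhesive day 14 in 28.5% and non-adhesive day 14 in 30.7%. Whether the calls differ from these shares was not tested. ENSRNOG00000021285 on chromosome 7 and ENSRNOG00000014149 on chromosome 16 were the negative genes without a symbol with the lowest p. The former had means of 2.54 ± 1.37, 0.747 ± 0.345, 0.496 ± 0.170 and 2.10 ± 1.66 CPM and a log2 difference of -3.83 ± 0.77 (DESeq2 adjusted p 0.0065). The latter was at 10.8, 10.8, 8.84 and 8.41 CPM in non-adhesive day 14 libraries and at 3.60 to 5.03 CPM in the other 12, with a log2 difference of -1.16 ± 0.24 (DESeq2 adjusted p 0.0067). Neither passed with edgeR, at adjusted p of 0.45 and 0.48.

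**Figure D5:**
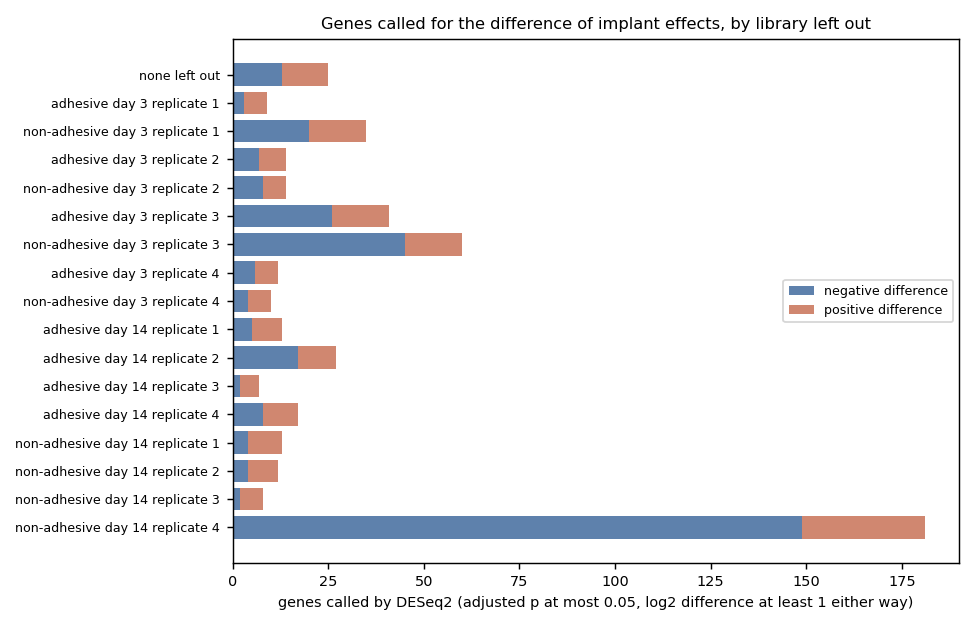
Number of genes called by DESeq2 for the difference of implant effects with no library left out (top bar) and with each of the 16 libraries left out, split by the sign of the difference. The count is 25 with all libraries, 7 to 60 with any of 15 libraries left out and 181 without non-adhesive day 14 replicate 4, most of them negative.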

How the data were processed

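Bulk RNA sequencing libraries of the rat abdominal wall at the implant were prepared with oligo(dT) selection and the NEBNext Ultra kit and sequenced at GENEWIZ. According to the methods and processing notes, the authors used bcl2fastq 2.17, FastQC, Cutadapt, STAR and featureCounts, and deposited raw counts per gene, without normalisation, for 32552 genes. Whether counting used strand is not given in the sources used here. Here, 14601 genes passed filterByExpr, and all 16 libraries were fitted with 4 group means after TMM scaling in edgeR 4.0.16 (robust quasi-likelihood test, R 4.3.3, Benjamini-Hochberg adjustment). Thresholds (0.05 for the adjusted p, 1 for the size of the log2 difference) followed the study. DESeq2 1.42.0 and limma-voom (limma 3.58.1) were alternatives on the same contrast. The pipeline was tested on simulated data.

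Symbols were read from identifier and symbol columns of the study's supplementary data, of which only a part is held here, for 2007 genes. Columns of the authors' own comparisons there hold normalised values and fold changes and were not used. Named genes were the call of edgeR, the 12 lowest p of each direction with a symbol and at least 1 CPM, symbol genes called by DESeq2, up to 3 members of each of 19 lists, Il10, and up to 2 identifiers per direction. Others were named after their values were seen. The comparison, lists and rule were chosen with earlier results of these data known. Some listed genes are not reported here and were left out of the lists. Promoter windows are RefSeq's on GRCr8. Values below 1 CPM rest on few reads, and libraries of day 14 were shallower than those of day 3.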

Additional observations from a re-analysis of the deposited data

Results flagged for a closer look

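The implant effect on ENSRNOG00000033734 differed between days by an edgeR test of that difference (log2 difference 3.37, adjusted p 0.016), with non-adhesive day 14 the low group. In 28 of 300 groups (75 named genes by 4 groups), 1 library lay far from the other 3 by Dixon's ratio. For independent normal values chance gives this in about 1 in 20 groups. The named genes share libraries and were picked from these data, so the 28 are not independent and cannot be set against that rate. Of the 28, 11 were in non-adhesive day 14 replicate 4. In that library Kit was at 4.99 CPM (other libraries of the group 19.0 to 20.1), RT1-N3 at 6.86 (21.7 to 22.9), Dse, an enzyme of dermatan sulphate synthesis, at 9.04 (51.2 to 56.6) and Gsk3b at 11.8 (13.7 to 14.0). It was high for Snx13 (39.4), Cct8 (194), Tfam, the mitochondrial transcription factor (99.8), Cox18 (15.1), Tfrc, the transferrin receptor (117), Xk (16.6) and Col26a1 (0.935 CPM). The part of its muscle-like make-up in these values was not tested.

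The other 17 were spread over 10 libraries. On day 14 with adhesive implants, replicate 1 was high for Cit (33.2 CPM) and Gc (2.92), replicate 2 for Gap43 (36.2), Kit (7.12) and Selp (13.7), and replicate 4 for C4bpa (0.157, with the other 3 at 0). On day 14 with non-adhesive implants, replicate 1 was high for ENSRNOG00000021285 (4.58 CPM). On day 3 with adhesive implants, replicate 2 was high for Tmem158 (71.2 CPM) and Adamts4 (26.2), replicate 3 for Cdkn1a (363) and Mybph (312), and replicate 4 for Fcmr (6.73). On day 3 with non-adhesive implants, replicate 1 was high for Fmod (25.9 CPM) and Cd247 (1.57), replicate 3 for Mx2 (182) and Il10 (1.55), and replicate 2 was low for Dse (19.9).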

How the results depend on the processing

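The 1 gene called by edgeR was also the count with limma-voom, no limit on the log2 difference, all genes with a count, the size factors of DESeq2, a non-robust fit or libraries thinned to 1 total, against 25 with DESeq2. With the replicate number as a block within each day it was 0 (563 genes at an unadjusted p under 0.05, lowest adjusted p 0.16; ENSRNOG00000033734 at 3.26). Correlations of same-numbered libraries ran from -0.34 to 0.48, and the numbers were not taken to pair libraries. On day 14 adhesive replicates 2, 3 and 4 correlated best with the non-adhesive library of their own number. On day 3 adhesive replicates 1, 2, 3 and 4 correlated best with another number. With so few libraries in a group, these correlations cannot decide whether libraries were paired. With each library left out, edgeR called 0 to 3 genes: 3 without non-adhesive day 14 replicate 4, and 0 without any adhesive day 3 library, non-adhesive day 3 replicate 4, adhesive day 14 replicates 2 or 3, or non-adhesive day 14 replicates 2 or 3. DESeq2 called 7 to 181 genes, an alternative chosen after seeing the data, with 41 without adhesive day 3 replicate 3 and 60 without non-adhesive day 3 replicate 3.

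Of the 75 named genes, Xk turned negative in 8 settings (-0.01 thinned, and -0.19, -0.05, -0.06, -0.01, -0.08, -0.07 and -0.06 with 1 library left out, where it ran from -0.19 to 0.70) and Cox18, from -0.21 to 0.06, turned positive without non-adhesive day 14 replicate 4. Counted over pairs of a list and a setting, list medians moved by more than the spread of libraries in 14 pairs and by less in 404, among them plasma proteins (0.03) and oxidative phosphorylation (0.57) without that library. Il10, Bdkrb1, C4bpa and Slc6a4 have group means below 1 CPM, as do some other named genes, and rest on few reads.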
